A study of Mus musculus with 6 samples.

Results

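The 1296 regions described here are 1 kb stretches of the mouse genome whose DNA methylation was lower in both kidneys obstructed for 7 days and given saline than in both sham-operated kidneys. They were picked from 88144 autosomal windows (1.47%) that held at least 3 CpG sites, each read at least 10 times in all 6 libraries. The level of a window is the percentage of its covering reads that were methylated, summed over its CpG sites. Read numbers of a window are summed over its sites as well, so a read that spans several sites counts at each. Nearby sites that agree may thus have been read on the same molecules. Differences are given in percentage points. A window was kept when the higher saline library lay at least 3 points below the lower sham library and the group means differed by 5 points or more. The saline and sham levels chose the windows, so their difference is given below as a description and was not tested, and "losing windows" is used as a name for what the rule kept. The mirror rule, with both groups exchanged, kept 7703 windows (8.74%).

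Methylation was read by reduced representation bisulfite sequencing, which cuts DNA with MspI and reads short CpG-rich fragments, in DNA of kidney cortex and outer medulla of wild type male C57BL/6J mice. Obstructed kidneys (UUO, unilateral ureter obstruction, a model of kidney fibrosis) had the left ureter tied and cut for 7 days, with daily injections of saline (saline 1 and 2) or of 1 mg/kg 5AZA in saline (5AZA 1 and 2). Sham 1 was operated on as the control of the obstruction, while sham 2 is labelled as the control of an ischemia/reperfusion experiment with 48 hours in its name, so time and experiment differ within the sham group. Whether each library stands for its own mouse is not stated in the labels, and p-values measure only the spread between these libraries. Covering reads per library ranged from 37728517 (sham 2) to 76730132 (saline 1), and no RNA or protein was measured against which the labelled tissue could be checked.

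Most CpG sites of mammalian DNA carry methyl groups, whereas CpG-dense gene promoters (CpG islands) are usually kept free of them, and methylation at such promoters goes with silence of the gene. When DNA is replicated, DNA methyltransferases copy the mark to the new strand. Drugs of the 5-aza group are built into DNA and trap these enzymes. Bulk kidney holds many cell types, each with its own pattern, so a change of methylation within cells and a change in the mix of cells cannot be told apart here.

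Sequences are shown for 4 gene starts because they hold both kinds of window found at promoters: those that stayed lower in saline when each CpG site had the same weight in every library, and those that did not. They are the windows with the lowest saline level against sham among named genes with at least 5 tested CpG sites in the 250 bases before the start. The sequences are RefSeq's (GRCm38.p6), written 5′ to 3′ along the gene; each was placed on mm9, the build of the files, by the spacing of its CpG sites and not by converting coordinates. Capitals mark the CpG sites that were tested. The stretch before Il12a, at chr3:68495096-68495345 on the + strand, belongs to the gene of the p35 subunit of the cytokine interleukin 12. The stretch before Fam110a, at chr2:151799131-151799380 on the - strand, belongs to a gene of a centrosome-associated protein. The stretch before Tgoln1, at chr6:72566995-72567244 on the - strand, belongs to a gene of a trans-Golgi network membrane protein. The stretch before Tmem268, at chr4:63219547-63219796 on the + strand, belongs to a gene of a transmembrane protein.
Il12a: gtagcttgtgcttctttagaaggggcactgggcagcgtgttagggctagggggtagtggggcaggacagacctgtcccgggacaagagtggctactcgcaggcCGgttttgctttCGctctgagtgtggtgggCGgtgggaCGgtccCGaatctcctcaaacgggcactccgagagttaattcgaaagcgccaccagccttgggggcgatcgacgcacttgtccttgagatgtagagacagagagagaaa
Fam110a: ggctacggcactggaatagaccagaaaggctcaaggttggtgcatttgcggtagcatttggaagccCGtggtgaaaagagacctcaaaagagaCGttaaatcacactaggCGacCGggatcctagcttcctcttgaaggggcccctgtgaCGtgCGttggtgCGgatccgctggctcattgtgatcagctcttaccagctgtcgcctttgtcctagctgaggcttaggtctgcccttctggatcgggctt
Tgoln1: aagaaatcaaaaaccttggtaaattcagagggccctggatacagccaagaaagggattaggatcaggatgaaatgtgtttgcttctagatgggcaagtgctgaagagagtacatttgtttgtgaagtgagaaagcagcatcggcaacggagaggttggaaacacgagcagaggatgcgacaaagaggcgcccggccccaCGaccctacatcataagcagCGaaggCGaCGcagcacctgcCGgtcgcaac
Tmem268: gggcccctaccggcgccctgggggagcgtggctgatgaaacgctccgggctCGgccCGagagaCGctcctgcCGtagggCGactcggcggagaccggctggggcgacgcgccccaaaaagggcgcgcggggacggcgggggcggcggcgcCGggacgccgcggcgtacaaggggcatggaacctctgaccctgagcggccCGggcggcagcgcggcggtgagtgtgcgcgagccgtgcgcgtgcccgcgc

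At Il12a, the 5 capital CpG sites together were methylated at 68.8% and 80% in saline (library 1, then 2, here and below), at 91.1% and 96.3% in sham, and at 84.3% and 78.4% in 5AZA (82 to 305 reads a library). Saline and sham did not overlap, and both 5AZA libraries lay below both sham libraries. The site 103 bases before the start had 56.1% and 76.1% in saline, 90.2% and 94.1% in sham and 80.9% and 73.3% in 5AZA. The first of the 5, 147 bases before the start, had 87.8% and 89.1% in saline, and sham overlapped these at 93.4% and 86.7%. The 4 other sites were lower in both saline libraries than in both sham libraries.

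At Fam110a, the 7 capital sites together had 49.1% and 46.4% in saline, 55.9% and 51.7% in sham and 47.8% and 45.6% in 5AZA (290 to 824 reads). The site 100 bases before the start, at 31.4% and 30.9% in saline, had 51.9% and 41.0% in sham. This site and the one 140 bases before the start were the only 2 of the 7 at which both saline libraries lay below both sham libraries. At the 5 others the groups overlapped: 88 bases before the start, sham 2 (39.5%) lay below both saline libraries (43.1% and 44.3%), and 184 bases before it saline had 15.9% and 23.9% against 30.5% and 14.7% in sham.

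Tgoln1 showed a lower window level although none of its sites had both saline libraries below both sham libraries. Its 5 sites together had 22.5% and 23.2% in saline, 36.5% and 28.7% in sham and 15.0% and 28.1% in 5AZA (108 to 249 reads). The site 10 bases before the start, the only one that was methylated to a large part, had 65.4% and 55.2% in saline against 57.6% and 51.7% in sham. What differed was its share of the reads, 32.5% and 40.8% in saline against 62.0% and 55.6% in sham. The other sites lay between 0% and 7.69% in every library. Tmem268 was alike in that 0 of its 7 sites had both saline libraries below both sham libraries. Its 5 sites from 199 to 171 bases before the start were at most 3.92% methylated in each library. The site 50 bases before the start took 9.0% and 17.7% of reads in saline against 29.0% and 26.3% in sham. The Tmem268 site 100 bases before the start was higher in both saline libraries (77.6% and 82.1%) than in sham (54.5% and 65.0%, 11 and 20 reads).

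Over all 1296 losing windows, the median level was 77.7% and 78.0% in the saline libraries, 86.5% and 87.1% in the sham libraries, and 79.1% and 78.3% in the 5AZA libraries. Over all 88144 windows the medians were 83.5% and 83.5%, 82.1% and 79.6%, and 79.0% and 77.7% in the same order. The rule chose these windows to be low in saline and high in sham, so the place of the 5AZA medians between the other groups rests on values that the choice had fixed. Windows chosen without 1 of the 4 libraries, given further on, show the 5AZA level against a library that had no part in the choice. The median saline minus sham difference was -7.82 points, from -27.2 to -5.01, against 1.13 points over all windows. Of the losing windows, 335 differed by at least 10 points, 69 by at least 15 and 8 by at least 20. Both saline libraries lay below both sham libraries in 9.69% of all windows, of which the rule kept those with the larger gaps.

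**Figure D1:**
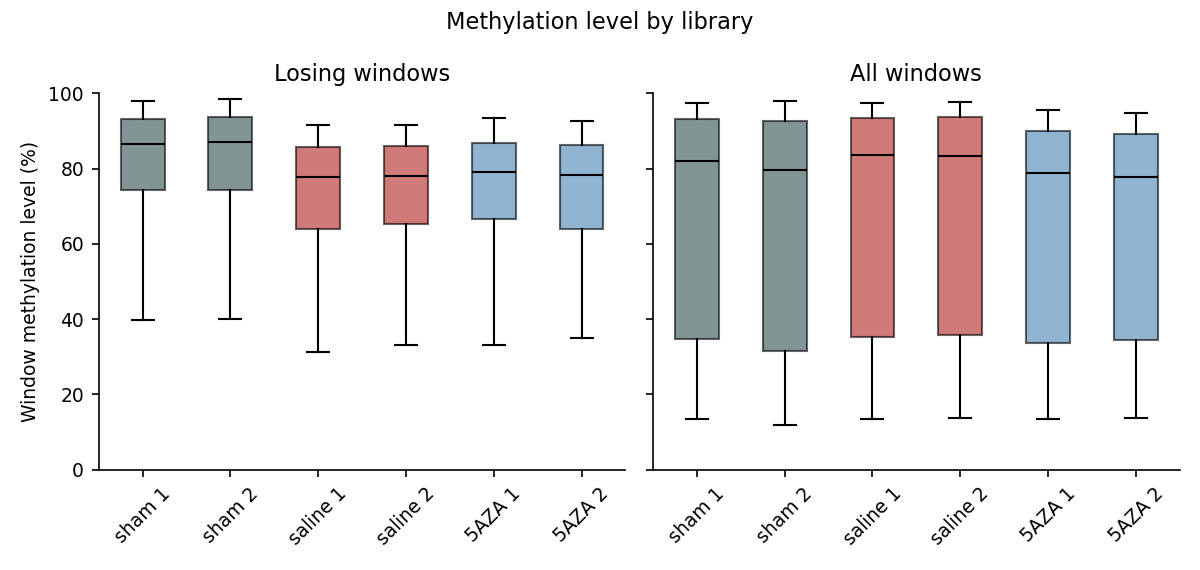
Methylation level (%) of the 1296 losing windows (left) and of all 88144 windows (right) in each library; boxes span the quartiles, lines are medians and whiskers reach the 5th and 95th percentiles. In the losing windows the medians of both 5AZA libraries (79.1% and 78.3%) lie near those of saline (77.7% and 78.0%) and below those of sham (86.5% and 87.1%), whose levels the rule had fixed.

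The windows nearest to the limits of the rule show how fine they are. Just inside the gap limit, chr13:3390001-3391000 had 90.8% and 91.7% in saline against 94.7% and 98.0% in sham, and chr5:73107001-73108000 had 96.0% and 90.9% against 99.0% and 100%. Just outside it, chr3:152232001-152233000 had 51.6% and 60.1% against 63.1% and 70.9%, and chr12:111264001-111265000 had 83.0% and 86.3% against 92.7% and 89.3%. For the limit on the means, chr7:142603001-142604000 and chr9:27072001-27073000 lay just inside, both with a difference of -5.01 points, and chr5:61065001-61066000 and chr17:60923001-60924000 just outside, both at -4.99. Median 95% Wilson intervals of a losing window reached 4.56 points to either side in sham 1 and 5.98 points in sham 2, so the limits lie within counting error of single windows. Reads are not separate molecules, and a read that spans several sites was counted at each. These intervals cover counting error only, and may be too narrow even for that.

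The 8 windows with the largest differences were methylated at 69.4% to 91.9% in the sham mean. The largest was chr1:56838001-56839000 (6 CpG sites, 134 to 452 reads a library), with 66.8% and 62.7% in saline, 88.3% and 95.5% in sham and 66.7% and 81.8% in 5AZA, a saline minus sham difference of -27.2 points. Of its 6 sites, 4 next to each other carried it: the site at 56838958 had 60.2% and 28.1% in saline against 88.0% and 95.5% in sham, whereas the site at 56838920 had 100% in both saline libraries. In chr15:79891001-79892000 (4 sites, 102 to 279 reads), saline had 64.2% and 63.8%, sham 91.2% and 91.0%, and 5AZA 71.2% and 60%. Its 2 middle sites, at 79891846 and 79891848, had saline levels of 50.5% and 51.2%, and of 54.8% and 55.0%, against sham levels of 88.2% and 83.3%, and of 94.1% and 100%. The outer sites differed by -2.96 and -4.74 points, so in both windows the difference sat in a few adjacent CpG sites. The nearest placed gene start was 30.3 kb away, that of Syngr1, which encodes a synaptic vesicle protein.

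In chr3:87304001-87305000 (3 sites, 48 to 255 reads), 25 kb before Etv3, the gene of an ETS-family transcriptional repressor, saline had 44.7% and 42.6%, sham 78.9% and 62.5%, and 5AZA 39.3% and 51.1%. In chr17:27684001-27685000 (5 sites, 95 to 208 reads), saline had 43.8% and 46.5%, sham 58.8% and 80%, and 5AZA 46.5% and 44.0%. The sham libraries were far apart in both windows, with an SD of 11.6 and 15.0 points (n = 2 each). In chr2:165350001-165351000 (6 sites, 113 to 384 reads), saline had 50.5% and 51.5%, sham 71.9% and 74.3%, and 5AZA 55.4% and 51.4%. Saline and sham were each close together there, and 5AZA lay near saline. That window lies 51.8 kb before Slc13a3, the gene of a sodium-coupled dicarboxylate transporter of the proximal tubule.

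In the 3 remaining windows of this set, the saline libraries disagreed. In chr4:34377001-34378000 (3 sites, 59 to 267 reads), saline had 50% and 73.6%, sham 85.4% and 86.4%, and 5AZA 79.7% and 84.9%. In chr7:29768001-29769000 (4 sites, 64 to 292 reads), 1431 bases into the gene direction from the start of Map4k1, a kinase of blood cells, saline had 50.6% and 76.0%, sham 82.5% and 84.4%, and 5AZA 76.8% and 73.7%. In chr13:114426001-114427000 (5 sites, 68 to 520 reads), 17.7 kb before Snx18, a sorting nexin of endosomal membranes, saline had 60.3% and 73.3%, sham 80% and 93.7%, and 5AZA 80.1% and 72.3%. Holding the mix of reads over the sites equal in all libraries, as explained further on, moved the chr7 window from -20.2 to -10.8 points, with 63.7% and 78.8% in saline and 80.5% and 83.6% in sham. Its lowest sites, at 29768416 and 29768419, each took 44.4% of the reads in saline 1 and 34.7% in saline 2, against 25.7% and 28.1% in sham. The other 7 of these 8 windows differed by -27.0 to -18.3 points under that setting. By the levels as deposited, in the last 3 windows 5AZA sat between the higher saline and the lower sham library or overlapped one of them.

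**Figure D2:**
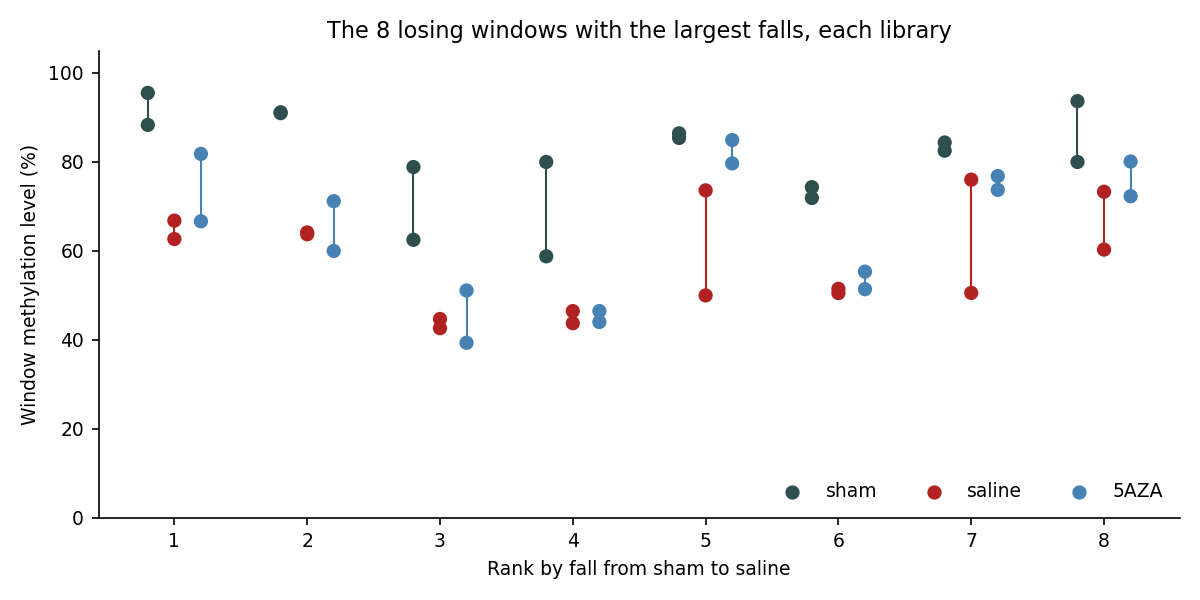
Methylation level (%) of the 8 losing windows with the largest saline minus sham differences, ranked from left to right (rank 1 differs by -27.2 points); each point is 1 library and a line joins both libraries of a group. In ranks 2 and 6 both groups are tight and 5AZA lies near saline, and in ranks 5 and 7 saline 1 (50% and 50.6%) lies far below saline 2 (73.6% and 76.0%).

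Losing windows had few CpG sites and seldom lay at either end of the methylation scale. Averaged over the 6 libraries, 673 of the 1296 (51.9%) lay at 80 to 95%, against 41.6% of all windows, and 392 (30.2%) at 60 to 80%, against 14.3%. At 95% or more there were 17 (1.31%, against 9.73% of all), and under 20% there were 11 (0.849%, against 15.5%). The share at 80% or more, 53.2%, was near that of all windows, 51.3%. A window was most often losing at 60 to 80% (3.10% of that class) and least often under 20% (0.0805%). The mirror rule had its highest share at 40 to 60%, where 28.5% of windows were gaining. It too kept few windows at the ends, 0.505% of those under 20% and 0.187% of those at 95% or more. Both rules ask for differences in points, which are harder to reach at either end, and the part of this was not tested. The median losing window had 4 tested CpG sites spread over 133 bp, against 5 sites over 167 bp in all windows, and 63.0% had 3 or 4 sites, against 46.7% of all. The share of losing windows was 1.98% at 3 or 4 sites, 1.51% at 5 to 9, 0.705% at 10 to 19 and 0.135% at 20 or more. The share of gaining windows was 10.2%, 10.5%, 6.39% and 1.31% in the same order, so it too was lowest at 20 or more. Depth moved with this: the least covered library had a median of 92 reads in losing windows and 132 in all windows, and the part of depth in the shares was not tested.

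**Figure D3:**
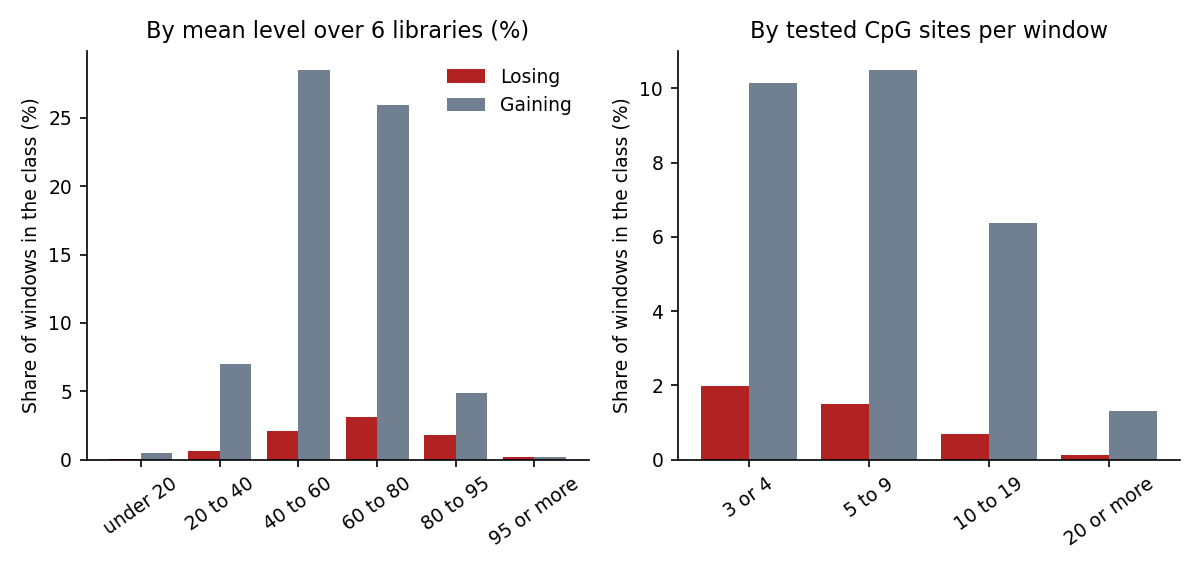
Share (%) of the windows of each class that were losing or, by the mirror rule, gaining, by mean level (left) and by number of tested CpG sites (right). The losing share is highest at levels of 60 to 80% (3.10%) and declines from 1.98% at 3 or 4 sites to 0.135% at 20 or more. The gaining share is also low at both ends of the scale and lowest at 20 or more sites (1.31%).

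Within the losing windows, 5100 of 6512 single CpG sites (78.3%) were lower in the saline mean than in the sham mean, and 3197 (49.1%) had both saline libraries below both sham libraries. Every site was lower in 540 windows (41.7%), while in 69 windows under 50% of the sites were. The reads of these sites had chosen the windows, so high shares are built in and the counts are a description. The shares over all tested sites are not given here. A second look at the same windows came from CpG sites that the rule had left out because a library read them fewer than 10 times. In the 84 losing windows with at least 20 reads a library at such sites, these were lower in saline in 37 (44.0%, against 36.9% of all windows with that depth). Their median difference was 0.985 points, against 1.41 points over all windows, so the median of the left-out sites was not lower in saline.

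Windows lying side by side were compared next. Being losing is decided by the same saline and sham libraries for both neighbours, so these counts are a description. Of 360 measured windows directly beside a losing window, 18 (5.00%) were themselves losing, against 0.997% of all windows that lie beside another, and 15 (4.17%) were gaining, against 7.03%. At a distance of 2 windows, 12 of 278 (4.32%) were losing, against 1.40%, while 35 (12.6%) were gaining, against 9.59%. At 3 and 5 windows the losing shares were 0.755% and 2.37%, against 1.54% and 1.55%, and the gaining shares 9.43% and 13.0%, against 10.1% and 9.82%. The gaining share was thus below that of all windows at 1 and 3 windows and above it at 2 and 5. The median window beside a losing one was 0.531 points higher in saline, against 1.16 points for all windows with a neighbour. On chromosomes, the share of losing windows ran from 0.958% (chromosome 18) to 1.73% (chromosome 7).

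There were 14 runs of losing windows whose starts lay within 2 kb of each other, 13 of them pairs. The longest held 3 windows from chr11:101025001 to 101030000, between 3116 and 7116 bases into the direction of Plekhh3, a pleckstrin homology domain gene. Its first window (33 sites) had 69.8% and 66.0% in saline, 74.9% and 73.0% in sham and 65.0% and 73.3% in 5AZA. Its middle window (4 sites) had 85.4% and 86.2% in saline, 92.9% and 93.2% in sham and 86.4% and 88.0% in 5AZA, and its last (9 sites) 74.0% and 73.0%, 77.9% and 80%, and 71.8% and 68.6%. With the mix of reads over the sites held equal, the difference of the last window went from -5.48 to -2.74 points (74.6% and 73.8% in saline, 76.8% and 77.1% in sham), while the others stayed at -5.93 and -7.18. In the last window, as deposited, 5AZA 1 and 5AZA 2 were lower than either saline library, while in the middle window they lay between saline and sham.

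The pair with the largest mean difference was chr8:86725001-86727000, whose first window (11 sites, 455 to 1082 reads) had 31.8% and 32.1% in saline, 39.8% and 40.0% in sham and 33.8% and 33.6% in 5AZA. Its second window (6 sites, 196 to 464 reads) had 43.3% and 38.4%, 61.0% and 57.6%, and 46.5% and 36.0%. The groups were tight in the first window and 5AZA stayed near saline in both. The pair at chr7:119828001-119831000 differed by -14.5 and -9.29 points and that at chr8:122729001-122731000 by -5.78 and -17.4 points, the former by -10.1 without sites that may be fragment ends. In the latter, 5AZA 2 was below both saline libraries in each window (75.4% and 66.3%).

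CpG-rich losing windows were few but deeply read. The richest, chr15:100884001-100885000 (81 sites, 2217 to 5803 reads), had 58.3% and 58.0% in saline, 68.6% and 62.1% in sham and 65.5% and 63.8% in 5AZA. Here 5AZA lay with sham and not with saline. In chr1:168239001-168240000 (50 sites, 1959 to 4267 reads), saline had 19.2% and 22.0%, sham 27.0% and 27.1%, and 5AZA 21.7% and 15.6%. In chr19:4615001-4616000 (42 sites), 167 bases into the gene direction from the start of Lrfn4, a leucine-rich repeat protein of neuronal surfaces, saline had 17.2% and 19.2%, sham 26.2% and 22.7%, and 5AZA 23.2% and 18.8%. The fifth by CpG number, chr19:27504001-27505000 (31 sites) at the start of C030016D13Rik, had 15.4% and 16.8% in saline, 20.4% and 22.0% in sham and 17.8% and 18.0% in 5AZA. With the mix of reads held equal its difference of -5.08 points became -0.45, with 17.8% and 17.7% in saline and 18.2% and 18.2% in sham. With at least 20 reads a site, it became -2.22 points, and the Lrfn4 window went from -6.26 to -2.48.

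The level of a window depends on which of its sites the reads fall on, and that mix differed between libraries. To hold the mix equal, each site was given the same weight in all 6 libraries (its reads summed over them), a setting chosen after the data were seen. It uses the same reads that chose the windows, so a difference that was kept is a description and no further support. Where all sites of a window took equal shares of the reads, the difference could not change. Of the 1296 windows, 1250 remained lower in saline and 1122 by at least 5 points. The share depended on the level. In the 690 windows of 80% or more, 690 kept the direction and 640 at least 5 points. In the 528 windows of 40 to 80%, 513 kept the direction and 462 at least 5 points. In the 78 windows under 40%, 47 kept the direction and 20 (25.6%) at least 5 points. Under 40%, most losing windows thus did not keep a 5-point difference once the mix of reads was held equal.

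**Figure D4:**
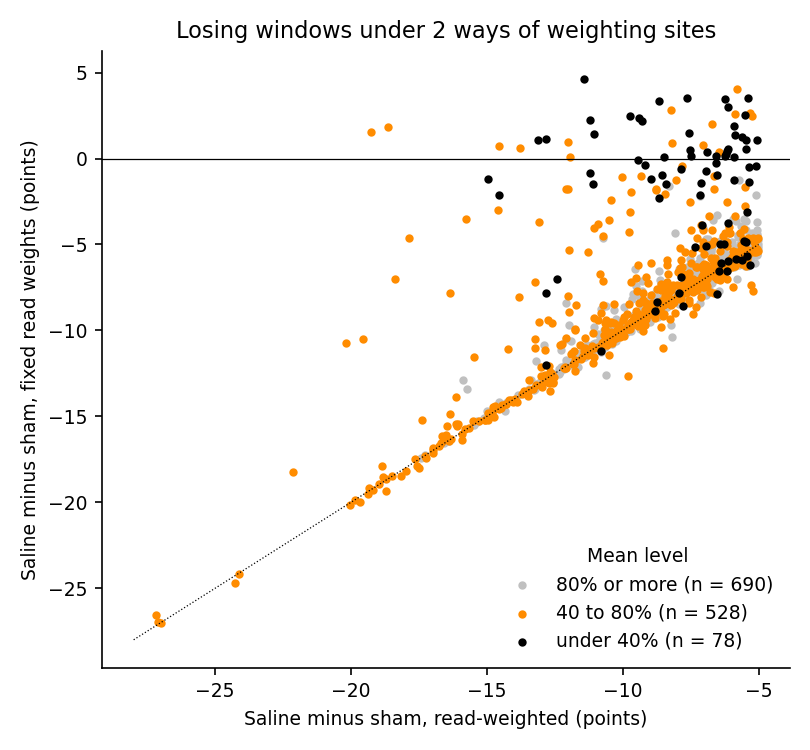
Saline minus sham difference (points) of each losing window by reads as deposited (horizontal) and with fixed read weights (vertical), 1 point a window, coloured by mean level; the dotted line marks equal values. Windows of 80% or more stay near the line, while many of the 78 windows under 40% move to 0 or above.

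This bears on gene starts. Of 32851 RefSeq promoter sequences, 15982 had enough CpG sites to be placed by their spacing and 9042 autosomal starts of 8021 genes were placed, none on chromosome 18, so a nearer start of another gene may have been missed. Of losing windows on the other autosomes, 64 (5.04%) lay within 2 kb of a placed start, against 15.3% of all windows. At a mean level of 20 to 80% the shares were 8.55% and 16.7%, and at 80% or more 1.48% and 1.18%. With fixed read weights, 27 of the 64 (42.2%) remained at least 5 points lower in saline, against 1073 of 1206 (89.0%) of the losing windows farther away. Of 25 losing windows that overlapped a placed promoter, 5 remained at least 5 points lower, 11 remained lower at all, and 15 were within 3 points of 0.

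Among the 12 windows at promoters with the largest read-weighted differences, 4 kept a lower saline level of at least 5 points. Il12a, with 72.9% and 77.8% in saline, 89.0% and 82.9% in sham and 82.6% and 80.2% in 5AZA over its 9 sites, differed by -10.6 points, and by -12.6 points with fixed weights. Gm29683 differed by -9.62 and -9.38 points, E330020D12Rik by -7.97 and -7.51, and Fam110a by -7.78 and -6.69. The Fam110a window (15 sites, 535 to 1454 reads) had 49.5% and 49.7% in saline, 59.6% and 55.1% in sham and 50% and 49.7% in 5AZA.

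The 8 others lost their difference. Fut1, which encodes a fucosyltransferase that makes the H blood group antigen, had 40.8% and 50.5% in saline, 60.9% and 69.0% in sham and 47.0% and 54.5% in 5AZA. Its difference of -19.3 points became 1.54 points with fixed weights. Skor1, a SKI-family transcriptional corepressor, went from -12.0 to 0.94 points and Tgoln1 from -9.74 to 2.48. Mfsd1, a lysosomal membrane transporter, went from -8.95 to -1.17 points, and Tmem268 from -8.68 to 3.34. Tram1l1 went from -8.18 to 0.88, Gm35829 from -7.56 to 1.48, and Ccl27a, a skin-homing chemokine, from -7.54 to 0.51.

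Away from the promoter itself, windows within 2 kb of a start more often kept their difference, though less often than windows farther away. Some reversed with fixed weights, among them the windows near Pnma1 (from -5.80 to 4.04 points) and Zdhhc18 (from -6.14 to 2.98). The following were picked after their values were seen, and are not typical of the set. The window 1320 bases before Hoxd9, a homeobox gene of the posterior body axis, had 41.4% and 40.3% in saline, 45.9% and 61.1% in sham and 37.9% and 39.4% in 5AZA, and differed by -12.7 points, -13.5 with fixed weights. The window 1393 bases before Six5, another homeobox gene, had 26.4% and 26.9%, 33.6% and 45.3%, and 34.3% and 28.1%, a difference of -12.8 points, -12.0 with fixed weights. In both, sham 2 lay highest. The window 1726 bases before Ndufs8, a subunit of mitochondrial complex I, had 78.1% and 65.8%, 90.3% and 86.4%, and 79.2% and 85.5%.

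Lists of kidney and blood cell genes could be followed only in small part, because few of their starts were placed. Within 50 kb of the placed starts, 0 of 41 windows at 5 of 20 leukocyte genes were losing (1.47% of all windows were), 1 of 46 at 4 of 20 tubule genes, 0 of 20 at 4 of 20 fibroblast and matrix genes, 1 of 19 at 2 of 10 endothelial genes and 0 of 3 at 2 of 10 podocyte genes. These counts are too small to set against the share over all windows. By the mirror rule 4, 5, 3, 2 and 1 of them were gaining in the same order, against 8.74% of all. The median saline minus sham difference over these windows was 1.67, 0.615, 1.99, 1.18 and 1.45 points in turn, against 1.13 over all windows. The tubule window lay 5.54 kb from the start of Lhx1, a LIM homeobox gene of kidney development (chr11:84333001-84334000, 30 sites), with 29.8% and 35.6% in saline, 42.1% and 40.1% in sham and 38.6% and 34.9% in 5AZA. The endothelial window lay 24.0 kb before Kdr, the gene of a vascular endothelial growth factor receptor (chr5:76398001-76399000, 5 sites), with 69.6% and 64.3% in saline, 77.4% and 76.8% in sham and 73.2% and 69.2% in 5AZA. With fixed read weights, the saline minus sham difference of the Lhx1 window went from -8.41 to -1.51 points. That of the Kdr window stayed near its value (-10.15 and -10.1 points).

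The 5AZA libraries show where these windows lay in obstructed kidneys given the drug. Over all windows 5AZA lay below saline, with a median difference of -2.71 points, but over the losing windows the median was 1.20 points (5AZA 1 1.49 and 5AZA 2 0.861). This median depended on how the windows were chosen: it was -0.882 points without sham 1, 2.63 without saline 2, 3.70 with a 10-point difference and 0.67 with fixed read weights. Against sham, the median was -6.98 points in losing windows and -1.12 points over all. The 5AZA mean was nearer to saline than to sham in 995 losing windows (76.8%, against 45.8% of all), lay between both means in 731, below the saline mean in 518 and at or above the sham mean in 47. On a scale from 0% at the saline mean to 100% at the sham mean, the median losing window was at 14.1% with 5AZA. Since the rule fixed both ends of that scale, windows that were low in saline or high in sham by counting error alone would also give values inside it.

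**Figure D5:**
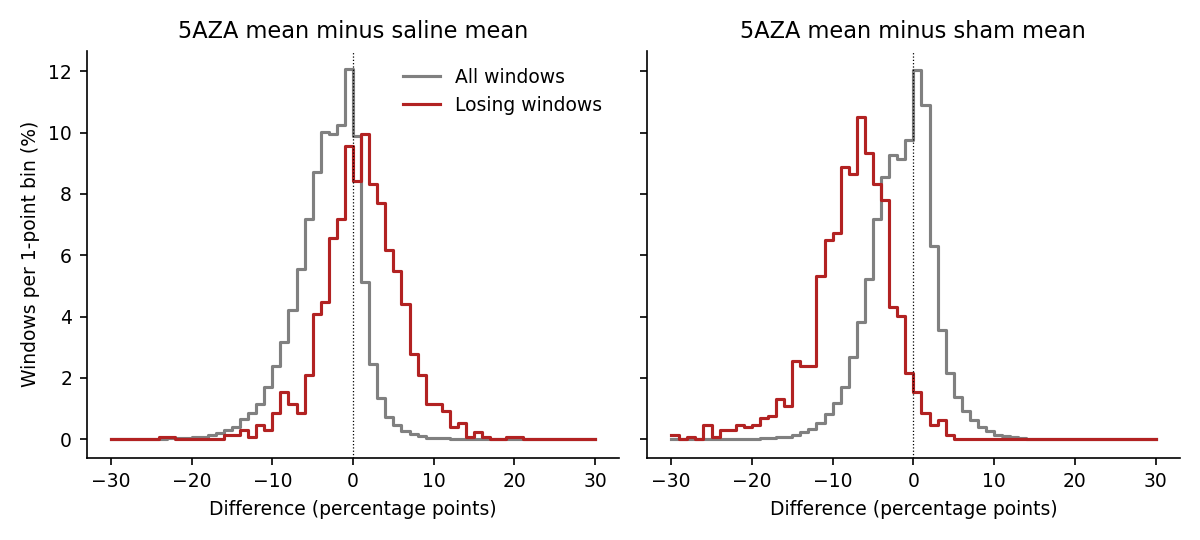
Share (%) of windows per 1-point bin of the difference between the 5AZA mean and the saline mean (left) and the sham mean (right), for losing windows and for all windows. Losing windows are centred near saline (median 1.20 points) and below sham (median -6.98 points), while all windows have medians of -2.71 and -1.12 points. The rule fixed the saline and sham levels of the losing windows, and the 1.20 points turned to -0.882 when sham 1 was left out of it.

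In library counts, both 5AZA libraries lay below both sham libraries in 1006 losing windows (77.6%), against 31.9% of all windows. Both lay above both saline libraries in 387 (29.9%), against 5.65%, and below both in 181 (14.0%), against 49.2%. Both lay above both sham libraries in 9, against 12.9%. All these counts share the saline or sham libraries with the rule, so the windows were chosen to be low in saline and high in sham.

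Leaving 1 library out of the rule gave values that the choice had not touched. Without sham 2, the rule kept 3980 windows, with medians of 70.5% and 71.4% in saline and 80.2% in sham 1. Sham 2, unused, had 73.3% there. The 5AZA mean differed from sham 2 by a median of -0.81 points (all windows -0.29), and both 5AZA libraries lay below sham 2 in 41.6% (all windows 40.7%). Without sham 1, the rule kept 3266 windows. Sham 1 had a median of 85.7% there, between sham 2 at 91.0% and saline at 82.3% and 82.5%. The 5AZA mean differed from sham 1 by a median of -3.98 points (all windows -1.94). Both 5AZA libraries lay below sham 1 in 65.3% (all windows 55.3%). Windows chosen with 1 sham library were thus closer to saline in the other sham library than in the one that chose them.

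The saline libraries behaved alike in this respect. Without saline 1, 2745 windows were kept, in which saline 1 had a median of 83.5% and saline 2 of 79.3%, with sham at 87.6% and 87.9%. Without saline 2, 3896 windows were kept, in which saline 2 had 81.3% and saline 1 76.3%, with sham at 85.2% and 85.1%. Each unused saline library lay between the used one and sham. Against the unused saline library, 5AZA differed by -2.26 points (saline 1; all windows -2.60) and by -2.77 points (saline 2; all windows -2.69). Against a saline library that had not chosen the windows, 5AZA was lower in the median window, by an amount near that over all windows. By library counts it was less often lower than over all windows. Both 5AZA libraries lay below the unused saline 1 in 51.4% (all windows 62.1%) and above it in 21.5% (all windows 15.0%). For the unused saline 2, the shares were 54.0% (all windows 63.4%) and 16.0% (all windows 12.5%).

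Methylated and unmethylated reads of each window were tested across all 88144 windows (edgeR quasi-likelihood test, Benjamini-Hochberg adjustment, called at an adjusted p under 0.05). For 5AZA against saline, 3 losing windows were called higher with 5AZA, against 4 of all windows (0.00454%), and 1 was called lower, against 1.73% of all windows. At an unadjusted p under 0.05, 96 losing windows were higher (0.417% of all windows were) and 32 lower (22.9% of all). The same saline libraries had been chosen to be low in these windows, so the choice itself moves these counts towards higher with 5AZA, and nothing is read from them. For 5AZA against sham, 0 losing windows were called in edgeR or limma. Of all windows, 1 was called lower (0.00113%) and 0 higher (0.0%) in edgeR. At an unadjusted p under 0.05, 623 losing windows were lower than sham (13.3% of all windows were) and 0 higher (1.44% of all). Here the sham libraries had been chosen to be high, which moves these counts towards lower with 5AZA. Against sham 2 in windows chosen without it, 5AZA differed by -0.81 points, near the -0.29 of all windows. Against sham 1 in windows chosen without it, 5AZA differed by -3.98 points, further than the -1.94 of all windows. The calls rested on few libraries: the 4 calls of losing windows against saline became 0 without saline 1, without saline 2 or without 5AZA 2, and 10 without 5AZA 1. Against sham, the 0 calls became 24 without 5AZA 1.

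In 2 of the 3 windows called higher with 5AZA than with saline, both 5AZA libraries lay near the sham libraries, while single sites differed unequally. In chr4:133428001-133429000 (6 sites, 228 to 879 reads), 15.2 kb from the start of Rps6ka1, a ribosomal S6 kinase of the growth factor pathway, saline had 79.4% and 77.4%, sham 89.7% and 89.5%, and 5AZA 90.8% and 88.9%. The 5AZA minus saline difference was 11.4 points (edgeR adjusted p = 0.0309, and 0.00356 to 0.144 over the 10 alternatives and the value given). At 5 of its 6 sites the saline mean lay more than 5 points below both the sham mean and the 5AZA mean. At the remaining site, 133428746, saline minus sham was -0.74 points. The rule had chosen these saline reads to be low against sham, so the site values describe the window and add no support to the call. In chr14:20597001-20598000 (6 sites, 94 to 351 reads), saline had 81.8% and 83.9%, sham 94.0% and 92.6%, and 5AZA 95% and 91.2%, a difference of 10.3 points from saline (edgeR adjusted p = 0.0482, range 0.0211 to 0.189). Its sites ran from -17.7 points (at 20597345) to -2.01 points (at 20597907) in saline minus sham.

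In chr8:24319001-24320000 (9 sites, 547 to 1045 reads), saline had 15.8% and 24.7%, sham 31.9% and 38.6%, and 5AZA 35.3% and 37.1% (edgeR adjusted p = 0.0377, range 0.00088 to 0.316). Here the mix of reads moved with the level: the site at 24319996, methylated at 96.1% to 100% in every library, took 1.99% and 18.2% of the reads in saline, 24.5% and 32.5% in sham and 27.9% and 30.7% in 5AZA. With fixed read weights the levels were 30.7% and 29.5%, 32% and 30.5%, and 30.9% and 31.5%, and the saline minus sham difference of -14.9 points became -1.19.

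The 1 losing window called lower with 5AZA than with saline was chr4:141033001-141034000 (6 sites, 132 to 353 reads), 32.9 kb from the start of Zbtb17, the gene of a zinc finger transcription factor that partners with MYC. It had 85.4% and 83.3% in sham, 77.3% and 77.9% in saline, and 60.1% and 49.2% in 5AZA. The 5AZA minus saline difference was -22.9 points (edgeR adjusted p = 0.0341, range 0.00576 to 0.151), and 5AZA lay -29.7 points from sham (edgeR adjusted p = 0.0632). The rule had chosen sham to be high in this window, which moves the comparison with sham towards lower with 5AZA. Nothing is read from that p-value. By window levels the 3 groups did not overlap. At its site 141033772, saline had 63.3% and 59.7%, sham 82.9% and 84.0%, and 5AZA 48.3% and 28.6%. This site had the largest saline minus sham difference of the window, -21.9 points. The other sites ran from -10.7 points (at 141033759) to 6.11 points (at 141033778), where the saline mean was higher.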

How the data were processed

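Methylation was compared in 6 kidney libraries, 1 file each. Per the labels' protocols, MspI-digested DNA was size-selected, treated with bisulfite and amplified. Reads were mapped with Bowtie to mm9, per the submitters' processing notes. How reads were trimmed and called is not given in the sources used here. Headers are lacking. From their values, the authors deposited counts of covering and of methylated reads for each CpG site, and a fraction that equals methylated over covering reads.

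Sites read at least 10 times in all 6 libraries (926817 autosomal sites) were summed in windows of 1000 bp with at least 3 sites. For the tests, edgeR 4.0.16 (R 4.3.3) was fitted to methylated and unmethylated counts (quasi-likelihood, intercept per library, group effect on methylated counts, common dispersion 0.00622, all 6 libraries), with Benjamini-Hochberg adjustment over 88144 windows. The test was also run on simulated data. Those gave every window the same spread, so they cannot show how the test behaves where spread differs between windows. Libraries were not paired by number.

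The windows and lists were chosen with earlier results of these data known. The design named the windows printed: the 8 largest differences, the 5 richest in CpG sites, called windows, up to 4 runs, up to 12 at promoters, and those nearest to each limit. RefSeq promoters (GRCm38.p6) were placed on mm9 where at least 8 of their CpG sites were seen, no other CpG site lay in the stretch, and 1 place in the genome matched; 9237 of 9250 matches lay on the named chromosome. No mm9 gene annotation was used here. Alternatives were other coverage and site minimums, unweighted and fixed weights, no highly covered sites, a 10-point difference, limma 3.58.1, only the 4 libraries compared, a block for replicate number, and each library left out. A candidate fragment-end site is one with as many reads, to within 5%, as its 2 neighbours added up, where both neighbours are no more than 220 bp away and each has 10% or more of its reads; leaving them out and the fixed weights were added after the data were seen. Intervals are Wilson's at 95%.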

Additional observations from a re-analysis of the deposited data

How the results depend on the processing

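The number of losing windows, 1296, was 714 with a coverage minimum of 20, 480 with at least 5 sites and 335 with a 10-point difference, and 2745 to 3980 when 1 saline or sham library was left out. The mirror rule's 7703 became 3521 with at least 5 sites, 3459 with a 10-point difference, and 9741 to 19183 with a library left out. The median 5AZA minus saline difference over losing windows, 1.20 points, was 1.69 at coverage 20, 0.687 with unweighted site levels, 0.67 with fixed read weights, 3.70 with a 10-point difference, and -0.882 (reversed, without sham 1) to 2.63 with a library left out. The median 5AZA minus sham difference, -6.98 points, was -6.42 at coverage 20, -8.59 with a 10-point difference, and -8.69 to -5.34 with a library left out. Fixed weights here chose the windows anew. At the other settings run, these 4 values stayed within 1.5 times (counts) or within the spread between both 5AZA libraries (medians).

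Over all windows, calls for 5AZA against saline numbered 1527, and 0 with limma (18142 at an unadjusted p under 0.05), 272 with only the 4 libraries, 935 at coverage 20, 223 without candidate fragment-end sites, and 0 (12534 to 15352 unadjusted; edgeR) to 1258 with a library left out. Among losing windows the 4 calls became 0 with limma (122 unadjusted), 1 with only the 4 libraries, 2 at coverage 20, 1 without candidate fragment-end sites, and 0 to 10 with a library left out. With a replicate block and the 4 libraries of both groups, calls rose to 7307, of which 40 were losing windows, among them the 4 called before. The numbers share no stated source: the difference between saline libraries correlated with that between 5AZA libraries at 0.078 over 88144 windows. Calls for 5AZA against sham, 1 with all libraries, were 0 with limma (12134 unadjusted), 21 at coverage 5, and 1 to 156 with a library left out. Among losing windows, 0 became 5 at coverage 5 and 0 to 24 with a library left out. Where a group is left with 1 library, it is taken to vary as the other groups do.

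The saline minus sham difference of promoter windows reversed with unweighted site levels and with fixed read weights, in that order, at Fut1 (1.06 and 1.54 points), Skor1 (0.63 and 0.94), Tgoln1 (1.55 and 2.48), Tmem268 (3.19 and 3.34), Tram1l1 (0.82 and 0.88), Gm35829 (1.18 and 1.48) and Ccl27a (0.82 and 0.51). It also reversed at Mfsd1 with unweighted levels (0.098) and without candidate fragment-end sites (0.68), at Ccl27a without those sites (0.97), and at Gm35829 with coverage 20 (3.44). The cause was not tested. Low coverage of sham 2 (a median of 21 reads a site) limits single windows.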
